A study of Mus musculus with 7 samples.

Results

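Inflammasome genes, Gsdmd and Padi4 were followed as 8 genes chosen by name: Nlrp3, Nlrp12, Aim2, Pycard, Casp1, Casp4, Gsdmd and Padi4. All 8 had a row in each of the 7 count tables of this single-cell RNA-seq study of mouse neutrophils, out of 6677 genes listed in every table and 28719 listed in any. Neutrophils were sorted as Ly6G+ CD11b+ live cells from male C57BL/6J mice. Healthy blood, bone marrow and spleen were each profiled in 2 runs, with 1 library per tissue and run made from a pool of 3 mice, and the mice were 6 weeks old in run 1 and 8 weeks old in run 2, so that age and run cannot be told apart. A seventh library held 5 pools of neutrophils marked by hashtag antibodies, and the treated mice were 8 weeks old when treatment began. These were blood of untreated mice (healthy blood), blood and joint lavage taken on day 7 from mice that had received 150 µl of arthritogenic K/BxN serum on days 0 and 2 (arthritic blood and arthritic joint), and lavage of lung or peritoneum 3 h after 25 ng of IL-1β was given into the nose or the peritoneum (IL-1β lung and IL-1β peritoneum). No pool given the carrier fluid alone was analysed here. Both IL-1β conditions are the response to 1 dose at 1 time, and the arthritis is driven by transferred antibody.

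Inflammasomes are protein assemblies that form in the cytosol when a sensor meets a microbial or damage signal. A sensor such as NLRP3 or AIM2 recruits the adaptor ASC, encoded by Pycard, which gathers caspase-1, and active caspase-1 matures IL-1β and IL-18 and cuts gasdermin D, whose fragment forms membrane pores. Caspase-11, encoded by Casp4 in the mouse, binds cytosolic lipopolysaccharide and cuts gasdermin D directly. PAD4, encoded by Padi4, converts histone arginines to citrulline and is needed for many forms of neutrophil extracellular trap (NET) release, while NLRP12 is a related sensor for which mostly inhibitory roles in inflammatory signalling have been described. In many cell types transcription of Nlrp3 and Casp4 rises before an inflammasome assembles, a step known as priming.

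The 250 bases before the RefSeq transcript start are shown for 4 genes, 1 pair for each direction at the IL-1β sites: Nlrp3 and Casp4, which were higher at both IL-1β sites, and Nlrp12 and Padi4, which were lower there on the CPM scale (unique molecular identifiers, UMIs, of a gene scaled to a common library total). Each is written 5′ to 3′ along the gene's strand, from RefSeq on GRCm38.p6, with matches to 4 short motifs in capitals. The Nlrp3 stretch is chr11:59541319-59541568 (plus strand), the Casp4 stretch chr9:5308599-5308848 (plus), the Nlrp12 stretch chr7:3249741-3249990 (minus) and the Padi4 stretch chr4:140774204-140774453 (minus).
Nlrp3: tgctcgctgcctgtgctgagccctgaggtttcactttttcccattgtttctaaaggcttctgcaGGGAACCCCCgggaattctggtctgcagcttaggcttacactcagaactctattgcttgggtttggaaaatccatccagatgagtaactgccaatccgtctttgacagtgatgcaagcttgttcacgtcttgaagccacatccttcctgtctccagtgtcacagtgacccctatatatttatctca
Casp4: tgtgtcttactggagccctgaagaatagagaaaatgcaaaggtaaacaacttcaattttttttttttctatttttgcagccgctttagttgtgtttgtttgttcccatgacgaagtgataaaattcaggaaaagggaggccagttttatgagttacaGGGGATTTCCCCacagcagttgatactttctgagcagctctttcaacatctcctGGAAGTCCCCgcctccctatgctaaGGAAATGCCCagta
Nlrp12: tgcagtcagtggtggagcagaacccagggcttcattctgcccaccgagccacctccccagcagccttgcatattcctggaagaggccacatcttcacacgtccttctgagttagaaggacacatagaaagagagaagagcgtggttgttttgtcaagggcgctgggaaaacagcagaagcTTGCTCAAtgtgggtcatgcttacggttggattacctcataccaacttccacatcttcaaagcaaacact
Padi4: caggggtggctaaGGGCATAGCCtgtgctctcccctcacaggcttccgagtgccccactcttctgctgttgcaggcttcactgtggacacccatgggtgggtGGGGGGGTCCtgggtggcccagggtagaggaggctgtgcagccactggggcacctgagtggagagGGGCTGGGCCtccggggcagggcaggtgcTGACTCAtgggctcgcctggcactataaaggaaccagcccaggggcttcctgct
The motifs searched on both strands were GGG and CC with any 5 bases between them (NF-kB type), TTGCNNAA (C/EBP type), TGANTCA (AP-1 type) and GAGGAA (PU.1 type). Of 32851 RefSeq stretches of this length, 45.8% held the NF-kB type, 9.56% the C/EBP type, 6.75% the AP-1 type and 23.3% the PU.1 type. Casp4 held 5 matches of the NF-kB type, 3 of which overlap each other in the longest capital run. Padi4 held 3 of the NF-kB type and 1 of the AP-1 type, Nlrp3 held 1 of the NF-kB type, and Nlrp12 held 1 of the C/EBP type and none of the NF-kB type. Among the other members with an entry, Casp1 held 1 NF-kB and 1 PU.1 match, Pycard 1 C/EBP and 1 PU.1 match, and Aim2 2 PU.1 matches. Nlrp3 also had a second listed start with 3 PU.1 matches, and no stretch was printed for Gsdmd. Such matches describe the letters only.

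By GENCODE annotation (GRCm38), Casp1 (chr9:5298517-5307265) and Casp4 (chr9:5308828-5336783) are neighbours on the plus strand of chromosome 9. Nlrp3 spans chr11:59541568-59566956 (plus), Gsdmd chr15:75862327-75867408 (plus) and Padi4 chr4:140745865-140774236 (minus), and none of these 5 genes overlaps another annotated gene. Aim2 (chr1:173350879-173466040, plus) overlaps Cadm3 on the other strand, Pycard (chr7:127989708-127993867, minus) overlaps Gm45205 on the other strand, and Nlrp12 (chr7:3218784-3249740, minus) spans 7 microRNA genes. Whether counting used the strand is not given in the sources used here, so reads of Aim2 and Cadm3 and of Pycard and Gm45205 may not be separable.

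Healthy cells were kept where S100a8 and S100a9 made up at least 3% of UMIs, which left 12755 of 16907 cells, between 1135 and 3672 per library and 1360064 to 9104133 UMIs. In the inflammation library the 4852 of 4856 cells with a granulocyte class in the deposited annotation were kept, 292 to 2857 per condition. All 13 neutrophil markers were detected in every library and condition, with a summed level of 158766 to 489736 CPM. This sum includes S100a8 and S100a9, by which healthy cells were kept and which made up 13.8% to 36.0% of kept UMIs. It is therefore no separate evidence of cell identity. Markers of other cells were uneven: 6 erythroid markers summed to 30350 CPM in run 2 blood and to 254 to 914 CPM in the other healthy libraries, and 9 B cell markers to 2656 CPM in run 2 spleen and to 39.3 to 817 CPM elsewhere. Their part in the tissue differences was not tested other than by leaving cells with such markers out. Libraries shared 0 to 36 barcodes pairwise, under 1% of the smaller library. Members were scarce: median depth was 775 to 2698.5 UMIs per cell in healthy libraries and 2527 to 3681 in the conditions.

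The sensor Nlrp3 was higher in blood than in bone marrow, and so were Nlrp12, Aim2 and Casp4, whereas Pycard was lower. These 5 of the 8 members passed the test between blood and marrow (edgeR quasi-likelihood test on sums per library with run as block, false discovery rate (FDR) below 0.05 over 7809 genes), beside 21.7% of all genes tested, 11.7% higher and 9.94% lower. Between spleen and marrow 2 of 8 members passed, Nlrp3 and Casp4, both higher, beside 2.75% of all genes (2.24% higher and 0.512% lower). Between spleen and blood none of the 8 passed in edgeR, 4 had an unadjusted p below 0.05, and DESeq2 called none, beside 0.0512% of all genes. Each tissue had 2 pooled libraries, so p-values rest on the spread between pools, and fewer cells with a transcript and less of it per cell cannot be told apart in such sums.

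**Figure D1:**
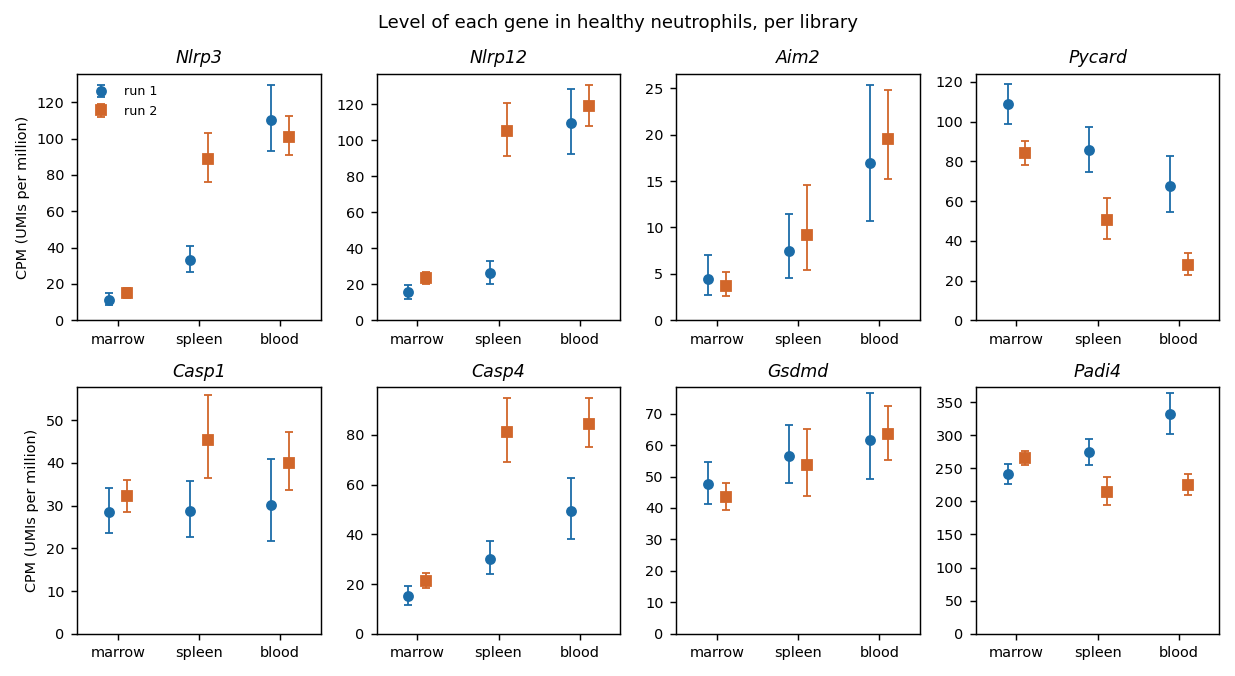
Level of each gene in CPM (y axes, from 0) in neutrophils of healthy bone marrow, spleen and blood, with 1 point per library (run 1 circles, run 2 squares) and exact 95% Poisson intervals for counting error. For Nlrp3, Nlrp12, Aim2, Casp4 and Gsdmd, the last of which was not called, both blood libraries lie above both marrow libraries. For Pycard they lie below them, and for Padi4 blood is above marrow in run 1 and below it in run 2. With 2 libraries per tissue such separation alone is weak, and its share over all genes was not counted.

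Nlrp3 stood at 110.3 and 101 CPM in blood of runs 1 and 2, at 33.1 and 88.9 CPM in spleen, and at 11.3 and 14.8 CPM in marrow. Blood was thus higher than marrow in both runs, and the spleen libraries differed from each other, with run 2 spleen close to blood. The share of cells with little secondary granule transcript, a class compared further on, moved with these levels, going in runs 1 and 2 from 87.1% and 98.4% (blood) through 51.9% and 95.9% (spleen) down to 24.7% and 35.2% (marrow). The log2 fold change was 2.74 ± 0.31 (SE) for blood over marrow (edgeR, FDR = 0.0032) and 1.93 ± 0.31 for spleen over marrow (FDR = 0.028). Nlrp12 showed a like order, with 109.6 and 119 CPM in blood, 26.0 and 105 CPM in spleen and 15.5 and 23.4 CPM in marrow. It was higher in blood than in marrow (log2 2.31 ± 0.35, edgeR FDR = 0.0072), and its difference between spleen and marrow, 1.37 ± 0.35, did not pass (FDR = 0.106). Aim2, which senses DNA in the cytosol, rested on few molecules. It was counted at 16.9 and 19.5 CPM in blood, from 23 and 68 UMIs, at 7.4 and 9.2 CPM in spleen, and at 4.5 and 3.7 CPM in marrow. The blood and marrow values did not overlap (log2 1.89 ± 0.31, edgeR FDR = 0.0089).

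The adaptor gene Pycard ran the other way. It stood at 108.8 and 84.2 CPM in marrow, 85.6 and 50.6 CPM in spleen, and 67.6 and 27.9 CPM in blood. Blood was lower than marrow in both runs, at 0.519 times the marrow level in run 1 and 0.266 times in run 2 after TMM scaling, and the fit over both runs gave a fall by 1.45 ± 0.30 on the log2 scale (edgeR, FDR = 0.017). Leaving out each library in turn gave -1.92 to -0.94, and the call was lost without either blood library or without run 2 marrow. Casp1, whose product is the protease at the centre of the canonical assembly, lay between 28.5 and 45.5 CPM in all 6 libraries, and blood and marrow differed by -0.08 ± 0.22 on the log2 scale (FDR = 0.82). Casp4 rose from 15.1 and 21.1 CPM in marrow to 30.1 and 81.3 CPM in spleen and 49.3 and 84.5 CPM in blood. It was higher in blood (log2 1.58 ± 0.23, edgeR FDR = 0.0067) and in spleen (1.33 ± 0.23, FDR = 0.035) than in marrow.

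Gsdmd, which encodes the pore-forming substrate of these caspases, stood at 61.8 and 63.5 CPM in blood, 56.6 and 53.7 CPM in spleen and 47.6 and 43.4 CPM in marrow. On CPM both blood libraries were above both marrow libraries, but the log2 difference was 0.19 ± 0.24 with TMM scaling and did not pass (edgeR, FDR = 0.62). Padi4, the gene of the citrullinating enzyme, stood at 332 and 225 CPM in blood, 274 and 215 CPM in spleen and 241 and 265 CPM in marrow, so that run 1 had more in blood than in marrow and run 2 less, and no tissue comparison passed (blood over marrow -0.20 ± 0.28, FDR = 0.64). TMM scaling, which sets libraries on the trimmed mean of their gene ratios and is used by the test, moved values: the median gene was higher in blood than in marrow by 0.23 and 0.26 (log2 CPM) in runs 1 and 2, and by -0.03 and -0.06 after TMM. The direction of the 5 called members in blood was the same on both scales, whereas Casp1 and the mean of Padi4 were higher in blood on CPM and lower after TMM.

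The blood and marrow calls rested on few libraries. When run was not fitted as a block, 2 members passed in place of 5 (Nlrp3 and Aim2), and the closing section gives the count over all genes. Leaving out 1 library leaves 1 library of that tissue, and the calls were lost without either blood library. Over such fits the log2 fold change was 2.39 to 3.11 for Nlrp3 and 1.87 to 2.73 for Nlrp12. It was 1.60 to 2.12 for Aim2 and 1.41 to 1.71 for Casp4. For spleen against marrow the count was 0 without the block. Calls were also lost without either blood library or without run 2 spleen, and gained without run 1 marrow or run 1 spleen. Over the fits without 1 library Nlrp3 was at 1.45 to 2.28 and Casp4 at 1.16 to 1.46 (log2, spleen over marrow). Leaving out cells with 3 or more UMIs of other lineages' markers, red cell markers not counted, kept the calls of Nlrp3, Nlrp12, Casp4 and Pycard between blood and marrow. In runs 1 and 2 it took away 9.95% and 6.70% of the kept blood cells, but 37.2% and 17.1% of those from spleen and 63.2% and 47.8% of those from marrow. With red cell markers counted Nlrp3, Nlrp12 and Casp4 passed, but 99.8% of run 2 blood cells and 20.2% of run 1 blood cells were then left out.

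Around the members, 36 of 51 other genes of the pathway were measured well enough to test, and 8 were higher and 6 lower in blood than in marrow, beside the 21.7% above. Their median log2 fold change was 0.07, against -0.02 for all genes. Among cytokines and effectors Il1b, which encodes the main cytokine product, was higher (log2 4.48 ± 0.42, edgeR FDR = 0.0022) and Serpinb1a, an inhibitor of neutrophil serine proteases, was lower (-3.25 ± 0.61, FDR = 0.0126). Of the 9 tested genes of the NET list 5 were lower and none higher, beside 9.94% of all genes lower, and the median was -2.98, the value of Cybb. Of the 6 called genes of the whole list with the largest changes, the 4 others were on it. They were the primary granule genes Elane, Mpo and Ctsg and the oxidase subunit gene Cybb, which stood at 297 and 59.7 CPM in blood and 864 and 688 CPM in marrow. Elane and Ctsg were at 0 UMIs in both blood and both spleen libraries, so their fitted fold changes depend on the prior count. The marrow level of Elane lay in few cells. Of its 1350 UMIs in run 1 marrow 1293 were in 14 of 1206 cells, and of its 647 UMIs in run 2 marrow 626 were in 16 of 3426 cells, and the same cells held 85.0% to 94.3% of the Mpo and Ctsg UMIs.

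The members were next compared between cells with little and with much secondary granule transcript, since mature neutrophils no longer make it. Cells with under 1% of UMIs from Camp, Ltf, Ngp, Chil3 and Lcn2 (granule-low) numbered 298 to 3615 per library, cells with at least 5% (granule-high) 24 to 1179, and 24 to 1041 cells lay between. None of the 5 genes is a member. Between these classes 5 of the 8 members passed, 4 higher and 1 lower in granule-low cells, beside 46.7% of 5361 genes, 25.3% higher and 21.5% lower (edgeR, library as block).

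**Figure D2:**
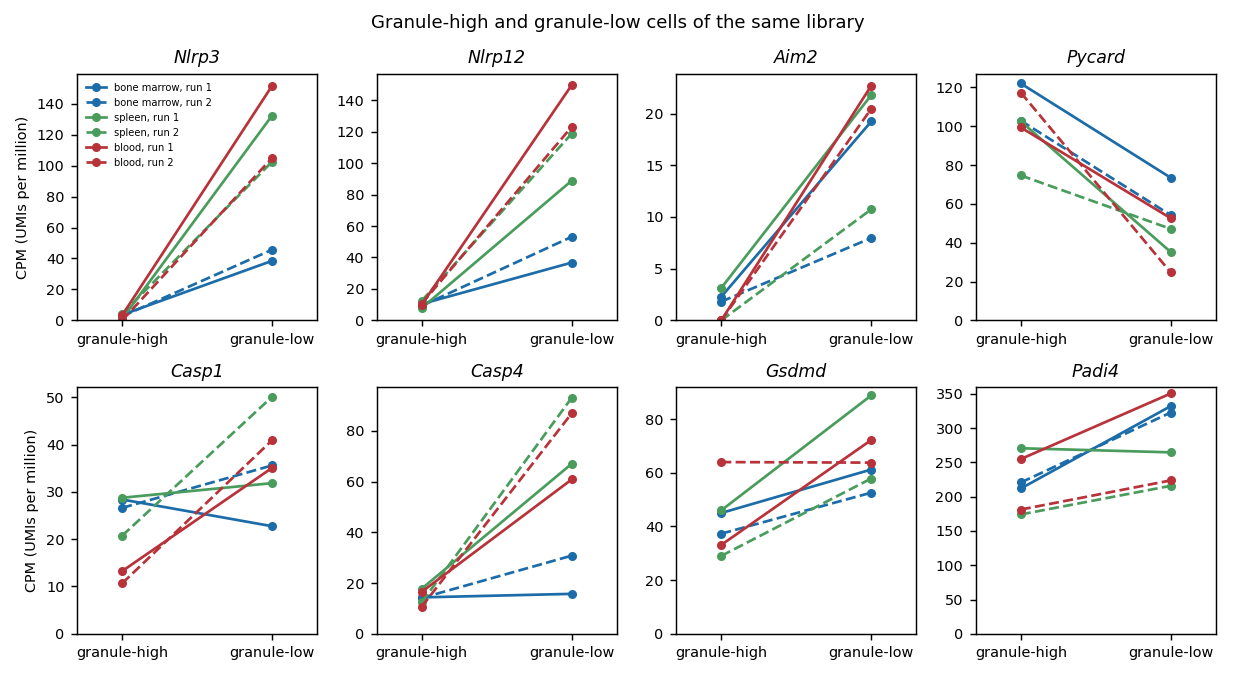
CPM (y axes, from 0) in granule-high and granule-low cells, with 1 line per healthy library coloured by tissue (solid run 1, dashed run 2). Nlrp3 and Nlrp12 are higher in granule-low cells in all 6 libraries. Casp4 is also higher in all 6, but in run 1 marrow the ratio is 1.10 with an interval that includes 1. Aim2 in run 2 blood and run 2 spleen is below the level of 3 counts in the granule-high class. Pycard is lower in all 6, with an interval that includes 1 in run 2 spleen, while Padi4 stays between 174 and 351 CPM in both classes.

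Nlrp3 was almost absent from granule-high cells, with 28 UMIs over the 6 libraries and 0 to 4.1 CPM (median 2.97), and stood at 38.5 to 152 CPM (median 104) in granule-low cells. Run 2 blood had 0 granule-high UMIs, and against 3 counts there the granule-low level was at least 3.28-fold higher. The classes did not overlap over the 6 libraries (log2 4.31 ± 0.34, edgeR FDR = 8.28e-08, with a fitted value that depends on the prior count where a class is at 0). Nlrp12 rose from 7.8 to 12.4 CPM in granule-high cells to 36.7 to 149.6 CPM in granule-low cells (2.51 ± 0.24, FDR = 6.54e-07). Aim2 had 22 UMIs in granule-high cells of all libraries, with 0 in both blood libraries and run 2 spleen, and 147 in granule-low cells. In run 1 blood it was at least 2.28-fold higher in granule-low cells, while in run 2 blood and run 2 spleen the granule-low level was itself below the level of 3 counts in the small granule-high class. The test called Aim2 higher (2.51 ± 0.38, FDR = 5.94e-05).

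Casp4 was at 10.7 to 17.8 CPM in granule-high cells of all libraries and at 15.7 to 93.0 CPM in granule-low cells (log2 1.19 ± 0.27, edgeR FDR = 0.0022), and the classes overlapped at the run 1 marrow value. The difference was smallest in run 1 marrow, where the ratio was 1.10 with a 95% counting interval of 0.471 to 2.28. Pycard was lower in granule-low cells of all 6 libraries, at 24.7 to 73.4 CPM against 74.6 to 122 CPM (-1.44 ± 0.21, FDR = 5.10e-05), with a counting interval that included 1 in run 2 spleen (ratio 0.631, 0.375 to 1.12). Casp1 (0.17 ± 0.25, FDR = 0.61), Gsdmd (0.33 ± 0.18, FDR = 0.14) and Padi4 (0.02 ± 0.16, FDR = 0.94) did not pass. On CPM Padi4, Gsdmd and Casp1 were each higher in granule-low cells in 5 of 6 libraries, but so was the median gene, by 0.01 to 1.12 on the log2 scale (-0.05 to 0.44 after TMM). The stage difference itself was not called different between tissues for any member (edgeR interaction test, FDR of 0.26 or more, beside 2.29% of all genes called), with unadjusted p = 0.018 for Padi4 and 0.038 for Nlrp3. Without the cells holding primary granule UMIs (chosen after seeing the data) Padi4 had the lowest of these values, with unadjusted p = 0.0030 and an edgeR FDR of 0.067, beside 3.78% of all genes called. Of the other pathway genes 26 were tested and 14 were higher and 10 lower in granule-low cells, beside 25.3% and 21.5% of all genes. Il1b (4.72 ± 0.20) and the DNA sensor gene Ifi204 (3.38 ± 0.28) were among those higher, and Cybb (-3.84 ± 0.32) among those lower, all with an edgeR FDR below 0.001.

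Within granule-low cells alone, the tissues still differed. The 1% limit need not match stage between tissues. Il1b (log2 2.48 ± 0.33, edgeR FDR = 0.0011) and Cybb (-2.36 ± 0.27, FDR = 0.00053), which differed between the granule classes, also differed between granule-low cells of blood and marrow. The part of a remaining stage difference in the member values was not tested. Nlrp3, Nlrp12 and Casp4 were higher and Pycard lower in blood than in marrow, 4 of 8 members beside 10.2% of 6042 genes (5.01% higher and 5.15% lower). Nlrp3 and Casp4 were higher in spleen than in marrow, 2 of 8 beside 8.56% (4.39% higher and 4.17% lower). None of the 8 passed between spleen and blood in edgeR (0 with an unadjusted p below 0.05, and 0 in DESeq2), beside 0.132% (0.0497% higher and 0.0828% lower). Nlrp3 stood at 38.5 and 45.7 CPM in granule-low marrow cells and at 103 to 152 CPM in those of blood and spleen, with the spleen libraries at 132 and 103 CPM. Its log2 fold change over marrow was 1.17 ± 0.25 in blood (edgeR, FDR = 0.0133), where it was 2.74 over all kept cells, and 1.04 ± 0.25 in spleen (FDR = 0.031). Casp4 stood at 15.7 and 30.8 CPM in marrow against 60.9 to 93.0 CPM elsewhere (1.28 ± 0.25 in blood, FDR = 0.0099, and 1.36 ± 0.26 in spleen, FDR = 0.0102). Nlrp12 passed in blood (1.21 ± 0.25, FDR = 0.0110) and not in spleen (0.82 ± 0.25, FDR = 0.077). Pycard was lower in blood (-1.15 ± 0.29, FDR = 0.032). The 3 genes that were higher in blood had the same sign under each of the alternatives run, but DESeq2 and the fit without the block called 0 members in both comparisons with marrow, and the spleen count was 0 without run 1 spleen.

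Padi4 was not called in this class. It stood at 332 and 323 CPM in granule-low marrow cells, at 351 and 224 CPM in blood and at 265 and 216 CPM in spleen, so that spleen was below marrow in both runs (log2 -0.80 ± 0.22, edgeR FDR = 0.0506). Granule-low marrow cells held transcripts of primary granules, with Elane at 1827 and 152 CPM against 0 in blood and spleen, but these lay in few cells. In run 1 marrow 4 of 298 granule-low cells held 1039 of the 1045 Elane UMIs, and in run 2 marrow 2 of 1206 held 286 of 287. When these 4 and 2 cells, all those with 3 or more UMIs of Elane, Mpo, Prtn3 and Ctsg, were left out, a choice made after seeing the data, Padi4 was lower in blood (-0.72 ± 0.17, edgeR FDR = 0.00708) and in spleen (-0.95 ± 0.18, FDR = 0.000967) than in marrow. Leaving those cells out also called Nlrp12 in spleen (0.70 ± 0.22, FDR = 0.038). With all granule-low cells included, the run 1 ratio of blood to marrow for Padi4 was 1.06 on CPM, and TMM scaling gave 0.876 with a counting interval of 0.731 to 1.05.

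The inflammation library addressed how the genes differ at sites of inflammation. Cells of the inflamed sites came from lavage and were compared with blood, so that site, lavage and inflammation cannot be told apart. The joint and the IL-1β sites also differ in stimulus and time. With 1 pool per condition there is no test, and the values carry exact 95% intervals that cover counting error only. Nlrp3 and Casp4 were higher at both IL-1β sites than in healthy blood, Padi4 was lower at all 3 inflamed sites, and in arthritic blood 7 of 8 members were within 2-fold of healthy blood on CPM. Most genes were likewise within 2-fold there, with 0.976% of all genes higher and 5.52% lower past it. The 4 comparisons with healthy blood share its pool, of 509 cells and 1124877 UMIs.

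**Figure D3:**
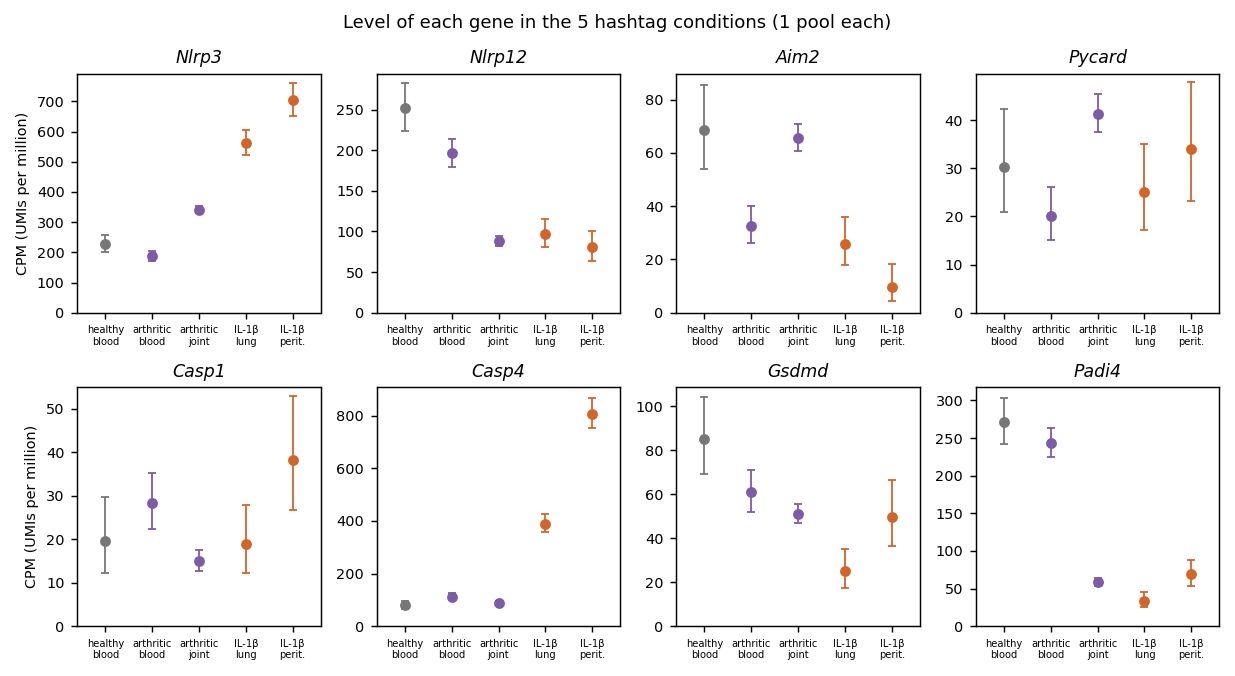
CPM (y axes, from 0) of each gene in the 5 hashtag conditions, 1 pool each, with exact 95% Poisson intervals for counting error. Casp4 reaches 807 CPM in IL-1β peritoneum against 79.1 CPM in healthy blood, and Padi4 lies at 34.1 to 69.0 CPM in joint, lung and peritoneum against 244 and 271 CPM in the 2 blood pools.

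Nlrp3 was measured at 227 CPM in healthy blood, 188 CPM in arthritic blood, 341 CPM in the joint, 563 CPM in IL-1β lung and 705 CPM in IL-1β peritoneum. On CPM every pair of neighbouring levels differed beyond counting error, the smallest ratio being 1.21 (1.04 to 1.41) for healthy over arthritic blood. Against healthy blood the ratio was 2.48 (2.15 to 2.88) in lung and 3.11 (2.69 to 3.61) in peritoneum. Nlrp12 was highest in blood, at 252 CPM in healthy and 196 CPM in arthritic blood, and stood at 96.9 CPM in lung, 88.3 CPM in the joint and 80.6 CPM in peritoneum. The last 3 could not be separated by counting error. Aim2 stood at 68.5 CPM in healthy blood and 65.8 CPM in the joint, which did not differ beyond counting error, at 32.7 and 25.7 CPM in arthritic blood and lung, likewise not separable, and at 9.5 CPM in peritoneum, counted from 9 UMIs.

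Pycard and Casp1 rested on 22 to 76 UMIs per condition outside the joint. Pycard lay between 20.1 CPM in arthritic blood and 41.3 CPM in the joint, and no neighbours in its order differed beyond counting error. Casp1 lay between 15.1 CPM in the joint and 38.2 CPM in peritoneum, likewise with no separable neighbours, although peritoneum was above healthy blood (ratio 1.95, 1.12 to 3.48) and the joint below arthritic blood (0.534, 0.403 to 0.712). Casp4 had the widest range of the members, at 79.1 CPM in healthy blood, 87.9 CPM in the joint, 111 CPM in arthritic blood, 389.8 CPM in lung and 807 CPM in peritoneum. Joint and healthy blood did not differ beyond counting error (ratio 1.11, 0.893 to 1.40), while lung was 4.93-fold (3.93 to 6.24) and peritoneum 10.2-fold (8.18 to 12.9) above healthy blood. Between the IL-1β sites, lung had 0.483 times (0.431 to 0.541) the peritoneal level.

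Gsdmd stood at 85.3 CPM in healthy blood, 60.9 CPM in arthritic blood, 51.0 CPM in the joint, 49.9 CPM in peritoneum and 25.0 CPM in lung. The step from healthy to arthritic blood and that from peritoneum to lung exceeded counting error. Padi4 stood at 271 and 244 CPM in healthy and arthritic blood, which could not be separated (ratio 1.11, 0.969 to 1.28), and at 69.0, 58.5 and 34.1 CPM in peritoneum, joint and lung. Its ratio to healthy blood was 0.216 (0.188 to 0.248) in the joint, 0.126 (0.0897 to 0.172) in lung and 0.254 (0.191 to 0.333) in peritoneum.

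The pools also differed in their share of granule-low cells, which held 492624 of 942688 UMIs in peritoneum and 1115711 of 1124877 in healthy blood. In granule-low cells alone Padi4 in peritoneum was 0.387 (0.283 to 0.521) of healthy blood, and Casp4 and Nlrp3 were 9.80-fold (7.76 to 12.5) and 3.45-fold (2.93 to 4.05) above it. Pycard in peritoneum turned from 1.12 to 0.849 (0.398 to 1.69), from 12 UMIs, so that neither value differed from healthy blood beyond counting error. Aim2 in peritoneum was 0.206 (0.0801 to 0.445) from 7 UMIs, and the members past 2-fold of healthy blood were the same as over all cells in each of the 4 conditions.

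The CPM scale itself differed between these pools, and the median gene lay below healthy blood by 0.36 (arthritic blood), 0.44 (joint), 0.94 (lung) and 1.01 (peritoneum) on the log2 CPM scale. TMM scaling brought these medians to 0.11, 0.12, -0.04 and -0.10. After TMM, Nlrp3 was 4.64-fold (4.02 to 5.37) and 5.85-fold (5.06 to 6.79) above healthy blood in lung and peritoneum, and Casp4 9.20-fold (7.34 to 11.7) and 19.2-fold (15.4 to 24.2). Padi4 remained below healthy blood, at 0.317 (0.276 to 0.365) in the joint, 0.235 (0.168 to 0.322) in lung and 0.478 (0.36 to 0.627) in peritoneum, and Aim2 at 0.262 (0.116 to 0.524) in peritoneum. These 8 ratios were past 2-fold on both scales.

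Other members depended on the scale. Nlrp12 was lower by over 2-fold at the 3 inflamed sites on CPM and by under 2-fold after TMM, with TMM ratios of 0.516, 0.719 and 0.603 in joint, lung and peritoneum. Aim2 in lung moved from 0.376 to 0.702, and Gsdmd from 0.293 to 0.547, both under 2-fold after TMM. Gsdmd in peritoneum was 0.584 on CPM and 1.10 after TMM, a change of direction. Direction also turned from lower on CPM to higher after TMM for Nlrp3 (0.827 to 1.14), Nlrp12 (0.779 to 1.07) and Padi4 (0.898 to 1.24) in arthritic blood, for Casp1 (0.77 to 1.13) and Aim2 (0.961 to 1.41) in the joint, and for Pycard (0.826 to 1.54) and Casp1 (0.968 to 1.81) in lung. Casp1 in peritoneum moved from 1.95 to 3.67 and Pycard from 1.12 to 2.11. In the joint Pycard moved from 1.37 to 2.01, and Nlrp3 reached 2.21 after TMM. For arthritic blood Aim2 (0.477) was the sole member past 2-fold on CPM, and none was after TMM.

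**Figure D4:**
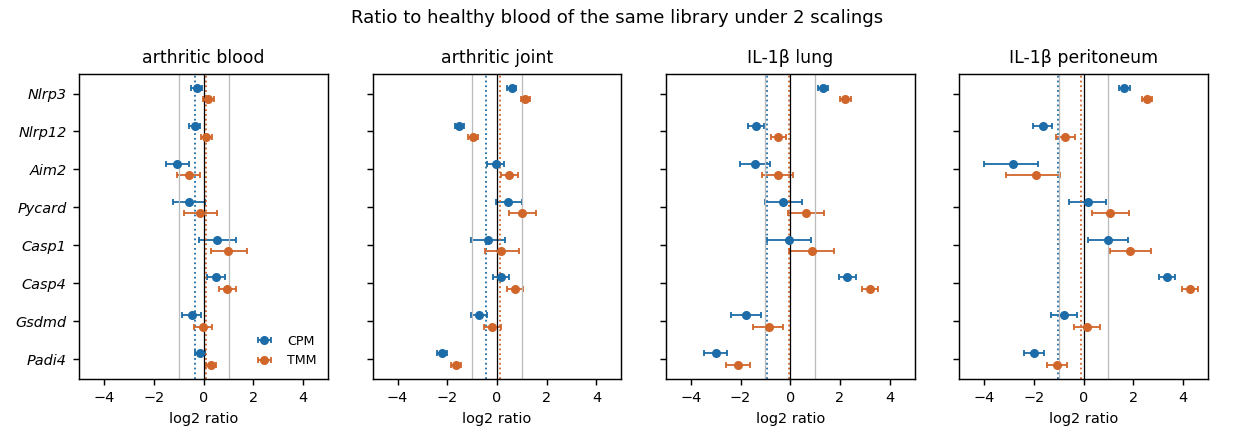
Log2 ratio of each gene to healthy blood of the same library in 4 conditions, on CPM (blue) and after TMM scaling (orange), with exact 95% counting intervals; dotted lines mark the median of all genes compared on each scale and grey lines a 2-fold difference. Nlrp3 and Casp4 in lung and peritoneum, and Padi4 in joint, lung and peritoneum, lie past 2-fold on both scales, while Nlrp12 does not after TMM.

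Counted on CPM, members past 2-fold of healthy blood numbered 0 higher and 1 lower in arthritic blood (all genes 0.976% and 5.52%), 0 and 2 in the joint (11.3% and 23.1%), 2 and 4 in lung (12.5% and 48.0%) and 2 and 3 in peritoneum (11.6% and 50.5%). After TMM they numbered 0 and 0 (3.58% and 1.02%), 2 and 1 (19.2% and 7.11%), 2 and 1 (23.6% and 21.5%), and 4 and 2 (21.8% and 21.8%). The joint and the blood of the arthritic mice, which do not use the healthy pool, differed past 2-fold in 4 members. Pycard (2.06, 1.55 to 2.79) and Aim2 (2.01, 1.61 to 2.54) were higher in the joint and Nlrp12 (0.45, 0.404 to 0.502) and Padi4 (0.24, 0.215 to 0.269) lower, beside 15.3% and 7.74% of all genes. After TMM the same 4 were past 2-fold (all genes 17.2% and 6.31%). Between the IL-1β sites Aim2 was higher in lung (2.70, 1.27 to 6.39) and Casp1 (0.496, 0.285 to 0.849), Casp4 (0.483) and Padi4 (0.494, 0.33 to 0.734) lower, beside 9.73% and 7.7% of all genes. After TMM Gsdmd was also past 2-fold, at 0.498 against 0.501 on CPM (all genes 9.57% and 7.93%). In granule-low cells Aim2 was under 2-fold (1.92, 0.833 to 5.16) and Gsdmd past it (0.331, 0.19 to 0.571). Of the first 4, Casp4 and Aim2 were past 2-fold when cells with under 3% S100a8 and S100a9, 7.62% to 23.4% of the cells of a condition, were left out. Markers of other lineages were uneven over the conditions. Of the kept cells 15.7% in healthy blood to 38.0% in peritoneum had 3 or more UMIs of such markers, those of red cells not counted, with 9 B cell markers at 74.1 to 440 CPM, highest in peritoneum, and 11 monocyte or macrophage markers at 283 to 389 CPM. Their part in the member ratios was not tested.

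The other pathway genes were counted in the same way. Of the 26 other pathway genes with at least 30 UMIs in IL-1β lung or healthy blood, 12 were higher and 4 lower past 2-fold on CPM (all genes 12.5% and 48.0%), and of 23 in peritoneum 14 were higher and 5 lower (11.6% and 50.5%). A gene could meet this limit through the pool where it is high alone, as Il1a, Gbp5 and Casp8 did at both sites. The counts are shaped by this and describe the genes listed only, and the shares of all genes use the same limit. The cytokine gene Il1a had 189 UMIs in lung and 87 in peritoneum against 2 in healthy blood (143 and 92.3 against 1.78 CPM). Il1rn, which encodes the IL-1 receptor antagonist, stood at 3281 CPM in lung and 8392 CPM in peritoneum against 297 CPM. Gbp5, an interferon-induced GTPase gene linked to NLRP3 and caspase-11 responses, stood at 25.7 and 76.4 CPM against 1.78 CPM, and Casp8 at 88.6 and 62.6 CPM against 12.4 CPM. Mefv, the gene of the sensor pyrin, stood at 499 CPM in peritoneum against 86.2 CPM. In the joint 12 of 33 such genes were higher and 4 lower than in healthy blood (all genes 11.3% and 23.1%), with Il18 at 31.8 against 4.44 CPM, Zbp1 at 73.1 against 11.6 CPM, Il1rn at 1543 CPM and Cybb lower at 26.4 against 120.9 CPM. The joint pool held 10293966 UMIs against 1124877 in healthy blood, so that genes met the limit more easily there. Il18 (327 against 5 UMIs) and Zbp1 (752 against 13) met it through the joint alone. In arthritic blood 2 of 23 were higher, Zbp1 (33.4 CPM) and Gbp2 (45.7 against 17.8 CPM), and none was lower (all genes 0.976% and 5.52%). Both genes met the limit through arthritic blood alone. After TMM the counts were 17 higher and 1 lower in lung (all genes 23.6% and 21.5%), 15 and 1 in peritoneum (21.8% and 21.8%), 17 and 1 in the joint (19.2% and 7.11%) and 3 and 0 in arthritic blood (3.58% and 1.02%).

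Shares of cells with a UMI were compared after thinning every cell to 1000 UMIs, which left out 61 to 155 cells per condition. Nlrp3 was then found in 16.9% of cells in healthy blood (95% exact binomial interval 13.2% to 21.3%), 16.8% in arthritic blood, 25.1% in the joint, 43.0% in lung and 44.2% (37.6% to 50.8%) in peritoneum. Casp4 was found in 4.52% (2.61% to 7.24%), 9.05%, 7.61%, 24.5% and 44.6% (38.1% to 51.2%). Padi4 was found in 17.2%, 18.8%, 5.27%, 2.80% and 6.93%. Pycard was found in 3 cells of healthy blood (0.847%, 0.175% to 2.46%) and in 9 of peritoneum (3.90%, 1.80% to 7.27%), with overlapping intervals. Unthinned shares were 33.6% and 69.2% for Nlrp3 and 13.9% and 70.5% for Casp4 in healthy blood and peritoneum. Nlrp3 and Casp4 were thus each found in more cells at the IL-1β sites, and detection of one went little with that of the other. In peritoneum Casp4 was found in 39.2% of 102 cells with Nlrp3 and in 48.8% of 129 cells without it, and in lung in 26.0% of 123 and 23.3% of 163.

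Cells left out of run 2 gave the shares in cells with markers of other lineages, where free RNA can also give a UMI. At 500 UMIs per cell, Nlrp3 was found in 5.2% of run 2 blood cells kept, 4.93% in spleen and 1.23% in marrow, against 0.14% of 1432 left-out spleen cells with B cell markers and 0 of 390 with T cell markers (which by the limit of 3 counts allows up to 0.769%, and by the exact interval up to 0.941%), whose median depths were 1422.5 and 1800 UMIs against 775 in kept spleen cells. Casp4 was found in 5.12% of kept spleen cells against 0.98% and 0% of those cells, and Padi4 in 10.7% against 0.70% and 0%. In run 2 blood, left-out cells with erythroid markers had Nlrp3 in 1.16%, Casp4 in 0.23% and Padi4 in 1.74% of 862 cells, against 5.2%, 3.68% and 9.15% of cells kept. Erythroid markers did not separate lineages in this library, since nearly all kept cells held them too. All 981 left-out blood cells had at least 3 such UMIs, and 356 of these had neutrophil markers without markers of other non-erythroid lineages. The 862 cells may thus include neutrophils. The 83 left-out blood cells with B cell markers, at a median of 1509 UMIs, had Nlrp3 in 1.205% (exact interval 0.0305% to 6.53%), Pycard in 3.61% (0.752% to 10.2%) and Casp4 in 0%, which by the limit of 3 counts allows up to 3.61%. Pycard was found in 13.1% of T-marker and 6.35% of B-marker spleen cells against 1.84% of spleen neutrophils, and in 0.232% of erythroid-marker cells against 1.03% of blood neutrophils. Aim2 was found in 2.095% of B-marker and 0.513% of T-marker spleen cells against 0.597% of spleen neutrophils. In B-marker cells and neutrophils of spleen the Casp1 shares were 1.61% and 2.54%, with overlapping intervals, and for Gsdmd 1.12% and 2.74%, without overlap. Lymphocytes may express Pycard and Aim2 themselves, and free RNA was not measured separately.

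Genes whose levels ran most like each member's were sought over 11 points, the 6 healthy libraries and the 5 conditions, as log2(CPM + 10) centred within each dataset, among 3802 genes. These correlations describe points that share mice, libraries and depth, and carry no p. The closest to Nlrp3 were Ifi204 (Pearson r = 0.99), Zfp36 and Wipf2, and to Casp4 Il1f9 (0.98), Lcp2 and 5430427O19Rik. Padi4 ran with Arid3a (0.99), Ap1s2 and a gene listed as 9-Sep, Nlrp12 with Tonsl (0.99), C5ar2 and Ggt5, and Aim2 with Tmem203 (0.98), Stard3 and Pip5k1c. Gsdmd ran with Pilrb2 (0.98), Abhd2 and Rnaset2a. The closest to Pycard and Casp1 were looser, at 0.91 for Anxa5 and 0.91 for Nadk. Among the members themselves r was 0.82 for Nlrp3 with Casp4, 0.81 for Gsdmd with Padi4 and -0.75 for Nlrp12 with Pycard.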

How the data were processed

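Single-cell RNA-seq of sorted mouse neutrophils was analysed from tables of UMI counts per gene and cell, which the authors made with Cell Ranger on mm10, a different version for each dataset, and deposited without normalization. Whether counting used the strand is not given in the sources used here. Hashtag condition and ImmGen class came from the deposited annotation. Counts were summed over the kept cells of each library. Healthy tissues were compared with edgeR 4.0.16 (R 4.3.3; TMM, filterByExpr, quasi-likelihood test, Benjamini-Hochberg adjustment over all genes, FDR 0.05) with run as block, since each run took all its tissues from one set of mice; deviations of same-run libraries correlated at 0.597, 0.631 and 0.550 over 7809 genes. DESeq2 1.42.0 was an alternative. Conditions had 1 pool each and were compared as ratios with exact 95% intervals (scipy 1.17.1), which cover counting error only. Cells were thinned to 500 UMIs in healthy and 1000 UMIs in inflammation libraries for shares. No doublet caller was run; only hashtag singlets were used in the inflammation library. The fits were tested on simulated data. The members, the pathway and marker lists and the tests were chosen with earlier results of these data known. The counts cover all 8 members in each main comparison, but not every member is named or given a value in each. Of 51 other pathway genes, at most 6 per comparison with the largest changes are named (1 item is not reported here), and conditions count genes with at least 30 UMIs in 1 pool. Alternative filters, limits, scalings and left-out libraries are in the closing section.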

Additional observations from a re-analysis of the deposited data

Results flagged for a closer look

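Padi4 differed in direction between the runs. Blood had 1.38 times the marrow level in run 1 and 0.848 times in run 2 (CPM), and spleen had 1.14 times in run 1 and 0.81 times in run 2. After TMM scaling the ratios were 1.15 and 0.682 for blood and 1.22 and 0.604 for spleen. With 1 library per tissue and run, this contrast of runs was not tested, and run and age cannot be told apart.

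Left-out cells of run 2, which enter no comparison between tissues, carried Pycard and Aim2 at 500 UMIs per cell. Pycard was found in 12.95% of 278 marrow cells and 6.35% of 1432 spleen cells with B cell markers, and in 13.1% of 390 spleen cells with T cell markers. Aim2 was found in 1.80% of these marrow and 2.095% of these spleen cells with B cell markers. Each share was above that in kept neutrophils of the same library, where Pycard was in 3.59% (marrow) and 1.84% (spleen) and Aim2 in 0.321% and 0.597%.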

How the results depend on the processing

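Leaving out cells with 3 or more UMIs of other cell types' markers gave 3 members called between blood and marrow (main 5) and 4 between spleen and marrow (main 2), and removed 99.8% of run 2 blood cells and 74.9% and 53.3% of marrow cells. Limits on mitochondrial share and genes per cell, DESeq2, and added neutrophil-marker cells each gave 1 for spleen against marrow. Without the replicate block the counts were 2 and 0, and 0 and 0 for granule-low blood and spleen against marrow (main 4 and 2), with 81 genes higher and 83 lower of all genes between blood and marrow, and none called in the other tissue comparisons. DESeq2 also gave 0 and 0 in granule-low cells. A granule share below 2%, or leaving out primary granule cells (chosen after seeing the data), gave 4 for granule-low spleen. Members past 2-fold in arthritic blood were 0 with the S100 limit of 3%, 2 with thinned cells and 0 with TMM (main 1). In lung they were 3 with TMM (main 6), in peritoneum 8 with thinned cells (main 5), and between lung and peritoneum 2 with the S100 limit (main 4). Unthinned healthy shares gave 3 members in place of 5.

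Leaving out each library in turn left 1 library of that tissue in the tissue comparisons, and some member calls were then lost or gained. By stage 4 to 5 members passed in these fits, beside 46.7% of all genes in the main fit. Log2 fold changes that changed sign were of members not called. For blood against marrow the ranges were -0.25 to 0.065 (Casp1), -0.061 to 0.40 (Gsdmd) and -0.64 to 0.29 (Padi4). For spleen against marrow they were -0.15 to 0.37 (Gsdmd) and -0.69 to 0.24 (Padi4), and for spleen against blood -0.35 to 0.21 (Gsdmd) and -0.40 to 0.29 (Padi4). In granule-low cells they were -0.12 to 0.30 (Casp1), -0.22 to 0.15 (Gsdmd) and -0.018 to 1.04 (Aim2) for blood against marrow, and -0.010 to 0.41 (Casp1), -0.30 to 0.36 (Gsdmd) and -0.40 to 0.42 (Aim2) for spleen against marrow. For granule-low spleen against blood they were -0.31 to 0.052 (Nlrp3), -0.29 to 0.70 (Pycard), -0.13 to 0.22 (Casp1), -0.091 to 0.32 (Casp4), -0.28 to 0.40 (Gsdmd) and -1.03 to 0.026 (Aim2), and for stage -0.0082 to 0.31 (Casp1) and -0.20 to 0.13 (Padi4).

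Other settings turned the sign of uncalled values. For spleen against blood these were Pycard (-0.10) and Gsdmd (0.10) without cells of other markers, and Casp4 (0.084) without those of non-erythroid markers. In granule-low blood against marrow Casp1 became -0.10 with the 2% limit and -0.068 without primary granule cells. In granule-low spleen against marrow Casp1 became -0.049 and Aim2 0.21 with the 2% limit, and Gsdmd 0.031 without the block and 0.019 in DESeq2. Padi4 by stage became -0.023 without the 5 granule genes. Over these settings 363 fold changes were the same in direction and side of the threshold, 24 lost and 9 gained a call, and 10 turned. The cause was not tested. Depth limits the condition values of Aim2, Pycard and Casp1, which had 9 to 36 UMIs in peritoneum, and of Gsdmd, which had 33 in lung.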
